A study of Homo sapiens with 6 samples.

Results

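The genes described here encode the aminoacyl-tRNA synthetases, the enzymes that join each amino acid to its transfer RNA. They were chosen as the rows whose Ensembl identifier, version removed, maps to 35 listed symbols, of 62703 genes in each table: 19 encode cytosolic enzymes or subunits and 16 encode mitochondrial enzymes. The RNA came from MDA-MB-231, an established human triple-negative breast cancer cell line, and was sequenced in bulk. The 3 shControl libraries are from cells with a control hairpin and the 3 shRNF20 libraries from cells in which RNF20 was knocked down by hairpin RNA, and their comparison asks how gene expression differs after RNF20 knockdown. RNF20 is an E3 ubiquitin ligase for histone H2B. The labels do not give the number of hairpins, whether cells were pools or clones, or the time after knockdown. No label says that the replicates came from separate cultures, so the p-values reflect the variation among these libraries alone, and that variation may be technical.

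Cytosolic synthetases charge the transfer RNAs read by ribosomes in the cytosol. Several of them are held with scaffold proteins in the multisynthetase complex. Mitochondrial synthetases are made from nuclear genes, imported, and charge transfer RNAs encoded by the mitochondrial genome, which are used to make subunits of the respiratory chain. Many cytosolic genes are known targets of ATF4, the transcription factor of the amino acid response, and uncharged transfer RNA is the signal sensed by the eIF2 kinase GCN2 (EIF2AK4). For most amino acids the cytosolic and mitochondrial enzymes come from different genes, whereas GARS1 and KARS1 each supply both compartments.

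Gene counts totalled 21988826 to 29685306 per library. Levels are given in counts per 1000000 (CPM), scaled for library composition. RNF20 stood at 57.8, 58.5 and 58.0 CPM in the shControl libraries and 14.1, 12.2 and 11.1 CPM in the shRNF20 libraries. The shRNF20 libraries were all lower, and the log2 fold change was -2.22 ± 0.11 (SE, edgeR adjusted p = 5.23e-06). Reads of the mitochondrial genome made up 1.09% ± 0.25 of counts in shControl and 5.74% ± 0.72 in shRNF20 (SD, n = 3 each). The 5 genes fixed as present in this line (VIM, CD44, EGFR, CAV1, AXL) summed to 3306 to 3847 CPM in shControl and 2777 to 2786 CPM in shRNF20. Of these, 3 fell, none rose and 2 did not pass. The oestrogen and progesterone receptor genes were near 0 in shControl (ESR1 0.10 and PGR 0.08 CPM), while ERBB2, CDH1 and EPCAM, also listed as low, were at 102, 18.2 and 13.5 CPM. These 5 genes summed to 131 to 137 CPM in shControl and 168 to 171 CPM in shRNF20, and of the 4 tested, 3 rose and 1 fell (CDH1). MS4A1, a B cell marker, was at 0 in all libraries. The list of 10 leukocyte markers that holds it summed to 7.11 to 10.1 CPM in shControl and 4.69 to 6.72 CPM in shRNF20. Of these 10 markers, 2 were at 0 in all libraries and 5 were not tested. Among the 5 leukocyte markers tested, 1 rose, 2 fell and 2 did not pass. The 8 fibroblast and endothelial markers summed to 21.1 to 29.3 CPM in shControl and 57.7 to 60.1 CPM in shRNF20, mostly from COL1A1 and PDGFRB, with DCN, VWF and CDH5 too low to test. Of the 5 tested, 4 rose and 1 fell. These calls are from the edgeR test given below, which called 58.4% of all tested genes, 28.7% higher and 29.8% lower in shRNF20. The part of these markers in the results was not tested.

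Because of the known link to ATF4, the genes' promoters were searched for TGATGNAA on either strand, the core of the C/EBP-ATF response element bound by ATF4 with its partners. RefSeq promoters (GRCh38.p14, 250 bases before to 50 bases after each gene start) were matched for 30 of the 35 genes, and LARS1, VARS1, YARS1, AARS2 and VARS2 were not matched. The element was found for 7 of 16 cytosolic genes with a promoter (43.8%) and for 1 of 14 such mitochondrial genes (7.14%). It stood in 3.62% of all 35116 promoters of the same length. A gene counted as a match if any of its promoters matched, and some genes had 2. The shares of genes are therefore not on the same footing as the share of promoters. Each match in these genes is shown in a window of 30 bases, written 5′ to 3′ on the gene's strand with the matching letters in capitals.
AARS1 chr16:70289675-70289704: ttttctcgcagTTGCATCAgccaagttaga
CARS1 chr11:3057407-3057436: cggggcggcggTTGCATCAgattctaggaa
GARS1 chr7:30594834-30594863: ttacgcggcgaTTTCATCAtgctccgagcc
IARS1 chr9:92293692-92293721: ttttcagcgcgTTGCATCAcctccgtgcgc
MARS1 chr12:57488053-57488082: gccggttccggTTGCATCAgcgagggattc
NARS1 chr18:57621804-57621833: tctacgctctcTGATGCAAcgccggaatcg
TARS1 chr5:33440956-33440985: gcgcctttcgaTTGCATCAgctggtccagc
YARS2 chr12:32756076-32756105: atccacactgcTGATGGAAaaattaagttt
The letters TTGCATCA, which read TGATGCAA on the other strand, stood in 5 of the 7 cytosolic windows as printed. A match describes letters and not a bound site.

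Among the 19 cytosolic genes, all of which passed the filter on low counts, 3 rose, 11 fell and 5 did not pass the test (edgeR quasi-likelihood test, adjusted p threshold 0.05 over all 15797 genes tested). Across all tested genes 58.4% were called, 28.7% as higher and 29.8% as lower in shRNF20. The median log2 fold change was -0.35 over the cytosolic genes and -0.01 over all genes. Protein-coding genes within the cytosolic genes' range of expression numbered 4525, of which 33.0% rose and 32.2% fell. Of the 16 mitochondrial genes, 15 were tested, of which 5 rose and 4 fell while 6 missed the threshold, and their median was 0.04. Protein-coding genes in their range of expression numbered 10817, of which 28.6% rose and 33.8% fell, so the mitochondrial counts lay near the background. When the 3 shRNF20 libraries were added up and treated as 1 sample, fewer synthetase genes of both compartments passed. Calls over all genes dropped as well, so the drop was not particular to the synthetases. From bulk RNA, fewer cells that express a gene and less of its RNA per cell cannot be told apart.

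**Figure D1:**
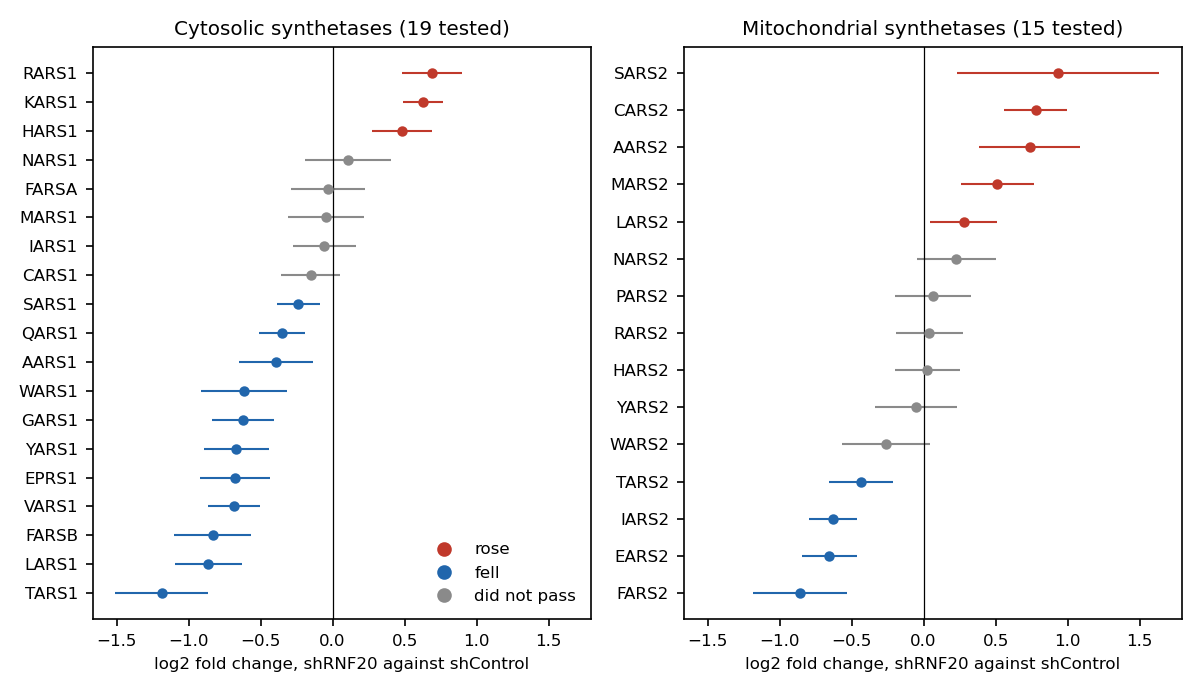
Log2 fold change (x axis, shRNF20 against shControl) of each tested synthetase gene with its 95% interval, cytosolic and mitochondrial genes set apart. The cytosolic genes run from -1.19 to 0.69 and the mitochondrial genes from -0.86 to 0.93.

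The cytosolic gene with the largest change was TARS1 (ENSG00000113407, chromosome 5, 33440696 to 33469539), the threonyl enzyme. TARS1 stood at 335, 219 and 306 CPM in the shControl libraries and 126, 125 and 127 CPM in the shRNF20 libraries. All shControl libraries were above all shRNF20 libraries, and they were also the more variable group. The TARS1 level was 2.28-fold lower, a log2 change of -1.19 ± 0.14 (SE, edgeR adjusted p = 0.000189). The leucyl enzyme gene LARS1 (ENSG00000133706, chromosome 5, 146113038 to 146182660), whose product also acts as a leucine sensor upstream of mTORC1, stood at 214, 230.3 and 281 CPM in the shControl libraries and 134, 134 and 132 CPM in the shRNF20 libraries. The libraries of LARS1 did not overlap between groups, and the log2 change was -0.86 ± 0.10 (SE, edgeR adjusted p = 0.000185). The valyl enzyme gene VARS1 (ENSG00000204394, chromosome 6, 31777518 to 31795953) stood at 312, 265 and 308 CPM in the shControl libraries and 185, 184 and 183 CPM in the shRNF20 libraries. Again every shRNF20 library was lower, with a log2 change of -0.69 ± 0.08 (SE, edgeR adjusted p = 0.000158).

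FARSB (ENSG00000116120, chromosome 2, 222570536 to 222656337), the beta subunit of the cytosolic phenylalanyl enzyme, stood at 70.6, 53.8 and 72.6 CPM in the shControl libraries and 37.3, 37.0 and 36.2 CPM in the shRNF20 libraries. It fell by a factor of 1.78, a log2 change of -0.83 ± 0.12 (SE, edgeR adjusted p = 0.000444). The alpha subunit gene FARSA, which had the largest p among the cytosolic genes, stood at 126, 90.9 and 111 CPM in the shControl libraries and 106, 104 and 111 CPM in the shRNF20 libraries. Its groups overlapped, and the log2 change was -0.03 ± 0.11 (SE, edgeR adjusted p = 0.814) with a 95% interval of -0.29 to 0.22. The intervals of both subunit genes, which encode parts of one enzyme, did not overlap (-1.10 to -0.57 for FARSB), although the difference itself was not tested.

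The genes that rose were those of the lysyl, arginyl and histidyl enzymes. KARS1 (ENSG00000065427, chromosome 16, 75627474 to 75648643), which supplies both compartments, stood at 167, 165 and 169 CPM in the shControl libraries and 265, 252 and 256 CPM in the shRNF20 libraries. Every shRNF20 library was above every shControl library, and the level was 1.54-fold higher, a log2 change of 0.63 ± 0.06 (SE, edgeR adjusted p = 7.73e-05). RARS1 (ENSG00000113643, chromosome 5, 168486445 to 168519299), the arginyl enzyme, stood at 113, 90.0 and 103 CPM in the shControl libraries and 170.3, 163 and 161 CPM in the shRNF20 libraries. The groups did not overlap, and the log2 change was 0.69 ± 0.09 (SE, edgeR adjusted p = 0.000315). HARS1 rose by 0.48 (log2, edgeR adjusted p = 0.00216), with shControl and shRNF20 means of 91.4 ± 10.4 and 127 ± 3.02 CPM (SD, n = 3 each).

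Of the other cytosolic genes that fell, YARS1 (tyrosyl), EPRS1 (glutamyl and prolyl), GARS1 (glycyl) and WARS1 (tryptophanyl) had log2 changes of -0.67, -0.68, -0.62 and -0.62 (edgeR adjusted p = 0.000571, 0.000834, 0.000686 and 0.00372). Smaller falls were measured for AARS1 (alanyl, -0.39, edgeR adjusted p = 0.0163), QARS1 (glutaminyl, -0.35, edgeR adjusted p = 0.00283) and SARS1 (seryl, -0.24, edgeR adjusted p = 0.0135). AARS1 and SARS1 did not pass without some single shRNF20 libraries (replicates 1 or 3 for AARS1, 1 or 2 for SARS1). The genes that did not pass were CARS1 (cysteinyl, -0.15), NARS1 (asparaginyl, 0.11), IARS1 (isoleucyl, -0.06), MARS1 (methionyl, -0.05) and FARSA. CARS1 passed without shControl replicate 1, NARS1 without shControl replicate 3 and IARS1 without shControl replicate 2. Among tested genes, groups of 3 libraries did not overlap for 3 cytosolic genes that were higher and 11 that were lower in shRNF20, and for 5 and 4 mitochondrial genes. The untested VARS2 was also higher without overlap. Over all tested genes, groups did not overlap for 66.3%, with 33.5% higher and 32.8% lower. In all, 8 cytosolic genes fell by at least 1.5-fold, 2 rose by at least that much, and TARS1 alone changed by at least 2-fold. The share of all tested genes past these folds is not given here, so whether these counts are unusual cannot be read from them.

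**Figure D2:**
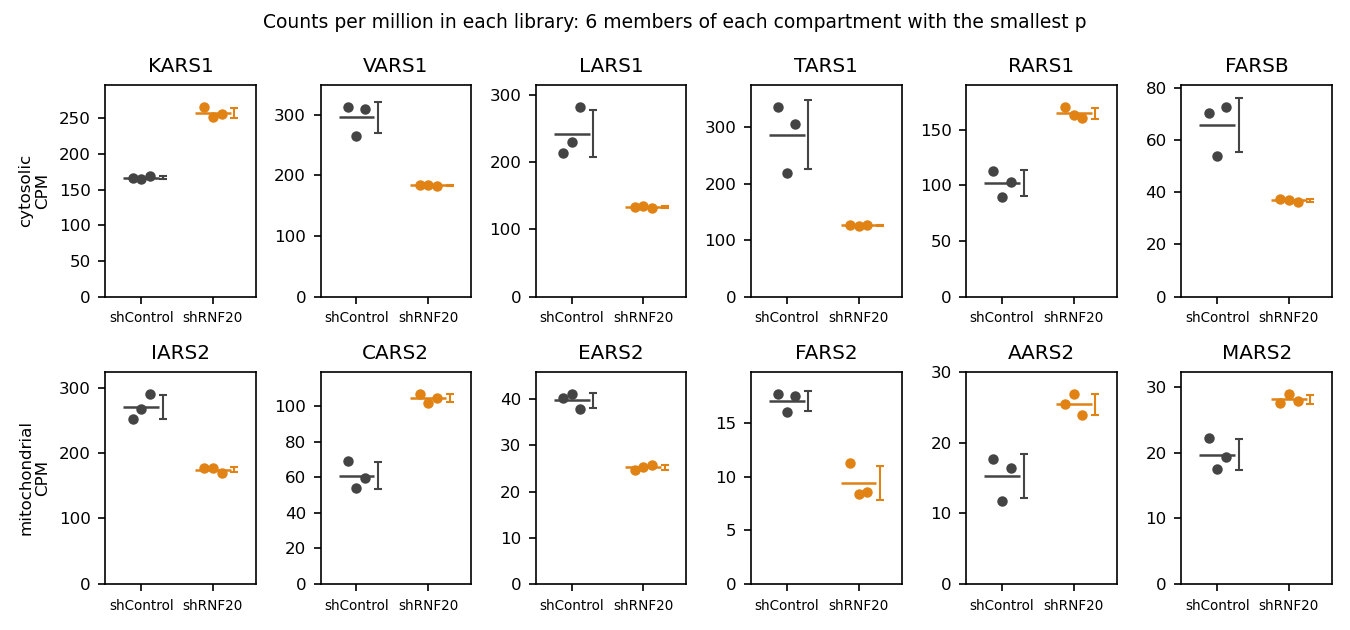
CPM of each library (points) with the mean (line) and SD (bar) of 3 libraries a group, for the 6 cytosolic (upper row) and 6 mitochondrial (lower row) genes with the smallest p. In every panel the shControl and shRNF20 points do not overlap, in the fallen TARS1 as in the risen KARS1.

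Members of the multisynthetase complex did not move one way. Of its 7 synthetase genes, KARS1 and RARS1 rose, EPRS1, LARS1 and QARS1 fell, and IARS1 and MARS1 did not pass, and the median log2 change was -0.06. None of the 3 scaffold genes passed in edgeR: AIMP2 had -0.21 (adjusted p = 0.282), AIMP1 -0.05 (adjusted p = 0.583) and EEF1E1 -0.05 (adjusted p = 0.787). Without shControl replicate 2, AIMP2 passed at -0.40 (edgeR adjusted p = 0.0078). Of the 12 cytosolic genes outside the complex, 1 rose (HARS1), 8 fell and 3 missed the threshold, and the median was -0.50. The difference between both subgroups was not tested. Split by catalytic fold, 5 of 9 class I and 5 of 9 class II cytosolic genes fell, with medians of -0.35 and -0.24. EPRS1, whose product joins a class I and a class II enzyme, was left out of that split.

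The calls were also counted by the TGATGNAA element shown above. Of the 7 cytosolic genes with a match, 3 fell (AARS1, GARS1, TARS1), none rose and 4 did not pass (CARS1, IARS1, MARS1, NARS1), with a median log2 change of -0.15. Of the 9 with a promoter but no match, 5 fell, 3 rose and 1 missed the threshold, and the median was -0.24. The difference was not tested.

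Among mitochondrial enzymes, IARS2 (ENSG00000067704, chromosome 1, 220094102 to 220148041), the isoleucyl enzyme, stood at 253, 268 and 289 CPM in the shControl libraries and 177, 177 and 169.8 CPM in the shRNF20 libraries. It was the most abundant mitochondrial member, all its shRNF20 values were lower, and the log2 change was -0.63 ± 0.07 (SE, edgeR adjusted p = 0.000164). EARS2 (ENSG00000103356, chromosome 16, 23522014 to 23557731), the glutamyl enzyme, stood at 40.2, 41.1 and 38.0 CPM in the shControl libraries and 24.6, 25.3 and 25.8 CPM in the shRNF20 libraries. Its groups were tight and apart, with a log2 change of -0.65 ± 0.08 (SE, edgeR adjusted p = 0.000255). FARS2 (ENSG00000145982, chromosome 6, 5261044 to 5829192), the single-subunit phenylalanyl enzyme, stood at 17.6, 16.0 and 17.5 CPM in the shControl libraries and 11.2, 8.35 and 8.57 CPM in the shRNF20 libraries. The highest shRNF20 library was below the lowest shControl library, and the log2 change was -0.86 ± 0.14 (SE, edgeR adjusted p = 0.00112). TARS2, the threonyl enzyme, fell by 1.35-fold (log2 -0.43, edgeR adjusted p = 0.00458).

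CARS2 (ENSG00000134905, chromosome 13, 110641412 to 110713603), the cysteinyl enzyme, also known for making cysteine persulfides, stood at 69.0, 53.9 and 59.9 CPM in the shControl libraries and 107, 102 and 105 CPM in the shRNF20 libraries. All shRNF20 values were higher, by 1.72-fold in the fit, a log2 change of 0.78 ± 0.10 (SE, edgeR adjusted p = 0.000218). AARS2 (ENSG00000124608, chromosome 6, 44299654 to 44313326), the alanyl enzyme, stood at 17.6, 11.7 and 16.4 CPM in the shControl libraries and 25.5, 26.8 and 23.9 CPM in the shRNF20 libraries. The groups did not overlap, and the log2 change was 0.74 ± 0.15 (SE, edgeR adjusted p = 0.00346). MARS2 (ENSG00000247626, chromosome 2, 197705369 to 197708387), the methionyl enzyme, stood at 22.3, 17.5 and 19.4 CPM in the shControl libraries and 27.6, 28.9 and 27.9 CPM in the shRNF20 libraries. Its shRNF20 values were all above its shControl values, and the log2 change was 0.51 ± 0.11 (SE, edgeR adjusted p = 0.00409).

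The other mitochondrial rises rest on less. LARS2 (leucyl) stood at 57.8, 48.6 and 62.3 CPM in the shControl libraries and 66.4, 65.7 and 72.3 CPM in the shRNF20 libraries. The groups lay close but did not overlap. The log2 change was 0.28 ± 0.10 (SE, edgeR adjusted p = 0.0430), and the call was lost in 9 of 17 alternative settings, among them the fit without genes of the mitochondrial genome. SARS2 (seryl) had 25, 36, 20 reads in the shControl libraries and 64, 39, 49 in the shRNF20 libraries, with a log2 change of 0.93 ± 0.31 (SE, edgeR adjusted p = 0.0290). Per CPM its groups did not overlap, but it lost its call in 6 of 17 alternatives. Of its exon bases, 57.0% are shared with other genes, AC011455.2 on the same strand and MRPS12 on the opposite strand. Reads over shared bases are recorded as ambiguous. In GENCODE 29, exon sharing above 10% was also found for MARS1 (13.3%), WARS1 (10.6%), HARS2 and VARS2. This does not name every gene that may have lost reads, since the release used for counting was not stated. Reads summed over both strand columns were 1.64 times the counts used here for YARS2 and 1.47 times for CARS1. These genes share 0% and 2.80% of exon bases in GENCODE 29. For SARS2 the sum was 1.03 times the counts.

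VARS2, the valyl enzyme, had 1, 4, 2 reads in the shControl libraries and 12, 10, 9 in the shRNF20 libraries and was too low to be tested. With no filter on low counts its log2 change was 2.08 ± 0.75 (SE, edgeR adjusted p = 0.0202), and 22.0% of its exon bases are shared with GTF2H4. The mitochondrial genes that did not pass were WARS2 (-0.26), NARS2 (0.23), PARS2 (0.06), YARS2 (-0.05), RARS2 (0.04) and HARS2 (0.03). Without shControl replicate 2, WARS2 passed at -0.40 (edgeR adjusted p = 0.0118). HARS2, which had the largest p of the mitochondrial genes, stood at 29.2, 31.6 and 34.9 CPM in the shControl libraries and 33.1, 34.0 and 30.4 CPM in the shRNF20 libraries. Its groups overlapped, and the 95% interval of its log2 change was -0.20 to 0.25.

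HARS1 and HARS2 are neighbours on chromosome 5, transcribed in opposite directions from starts 85 bases apart in RefSeq. The 84 bases between the starts are shown because both genes start beside them, while HARS1 rose and HARS2 did not pass. They are printed on the plus strand, which is the HARS2 strand, with each CCGGAAGT motif of the ETS family, on either strand, in capitals.
HARS1-HARS2 chr5:140691371-140691454: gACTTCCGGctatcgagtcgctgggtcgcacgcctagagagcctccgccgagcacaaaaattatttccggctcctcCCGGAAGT
The motif occurs at both ends of the stretch, once on each strand. It was also common among the other synthetases, found for 5 of 16 cytosolic and 3 of 14 mitochondrial genes with a promoter, HARS1 and HARS2 included. Of all promoters in the table, each 300 bases long, 4.14% held it. HARS1 stood at 97.4, 79.3 and 97.3 CPM in the shControl libraries and 124, 130.4 and 127 CPM in the shRNF20 libraries. All shRNF20 libraries were above all shControl libraries for HARS1, whereas the HARS2 values overlapped. The difference between both genes' changes was not tested. In GENCODE 29 the genes overlap, since HARS2 starts at 140691426 and HARS1, on the other strand, reaches 140691862. There 15.8% of HARS2 and 8.38% of HARS1 exon bases are shared with other genes, in part with each other. Reads over shared bases are recorded as ambiguous, so both genes may have lost reads.

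Setting the cytosolic and the mitochondrial gene for each amino acid side by side gave 15 pairs, with FARS2 paired to each subunit gene of the cytosolic enzyme. The mitochondrial gene had the higher log2 change in 9 pairs and the lower in 5, and the valyl pair had no value. In 3 pairs the cytosolic gene fell and the mitochondrial gene rose (alanyl, leucyl and seryl), with differences of 1.13, 1.14 and 1.17 in log2 change. In no pair did the cytosolic gene rise and the mitochondrial gene fall. Both genes fell in the threonyl pair and for FARSB with FARS2. Differences within pairs were not tested, and the calls of AARS1, SARS1, LARS2 and SARS2 were lost without some single libraries.

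**Figure D3:**
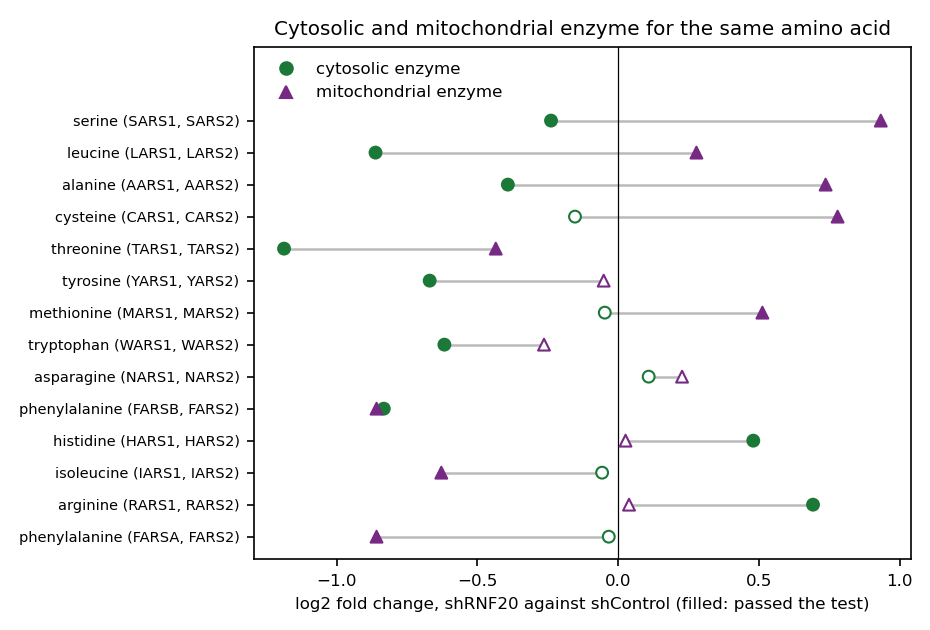
Log2 fold change (x axis) of the cytosolic (circles) and mitochondrial (triangles) gene for each amino acid, joined by a line, filled where the gene passed the test. The serine, leucine and alanine pairs span the largest distances (1.17, 1.14 and 1.13), and the valine pair is left out because VARS2 was not tested.

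Per length of exon, taken over all annotated exon bases of a gene, cytosolic genes were the more abundant. In RPKM (CPM per kilobase of exon), their median level was 44.9 in shControl and 30.6 in shRNF20, against 6.47 and 8.09 for mitochondrial genes. IARS1 was the highest cytosolic gene in shControl, at 60.0 ± 7.83 RPKM in shControl and 57.6 ± 0.680 RPKM in shRNF20. IARS1 libraries read 450.4, 383 and 498 CPM in the shControl libraries and 424, 432 and 423 CPM in the shRNF20 libraries, and the groups overlapped. IARS2 stood above it in shControl, at 64.8 ± 4.44 RPKM in shControl and 41.9 ± 0.991 RPKM in shRNF20. The gap between IARS1 and IARS2 was within their spread in shControl, and NARS1 had the highest level in shRNF20 (64.2 RPKM). Ranked by mean RPKM, KARS1 moved from rank 12 to rank 2 among the 35, at 41.1 ± 0.529 RPKM in shControl and 63.4 ± 1.70 RPKM in shRNF20, and RARS1 from rank 14 to rank 4. TARS1 moved from rank 6 to rank 14, at 50.2 ± 10.6 RPKM in shControl and 22.0 ± 0.164 RPKM in shRNF20. CARS1 was the lowest cytosolic gene in both groups, at 8.01 ± 0.837 RPKM in shControl and 7.20 ± 0.211 RPKM in shRNF20.

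**Figure D4:**
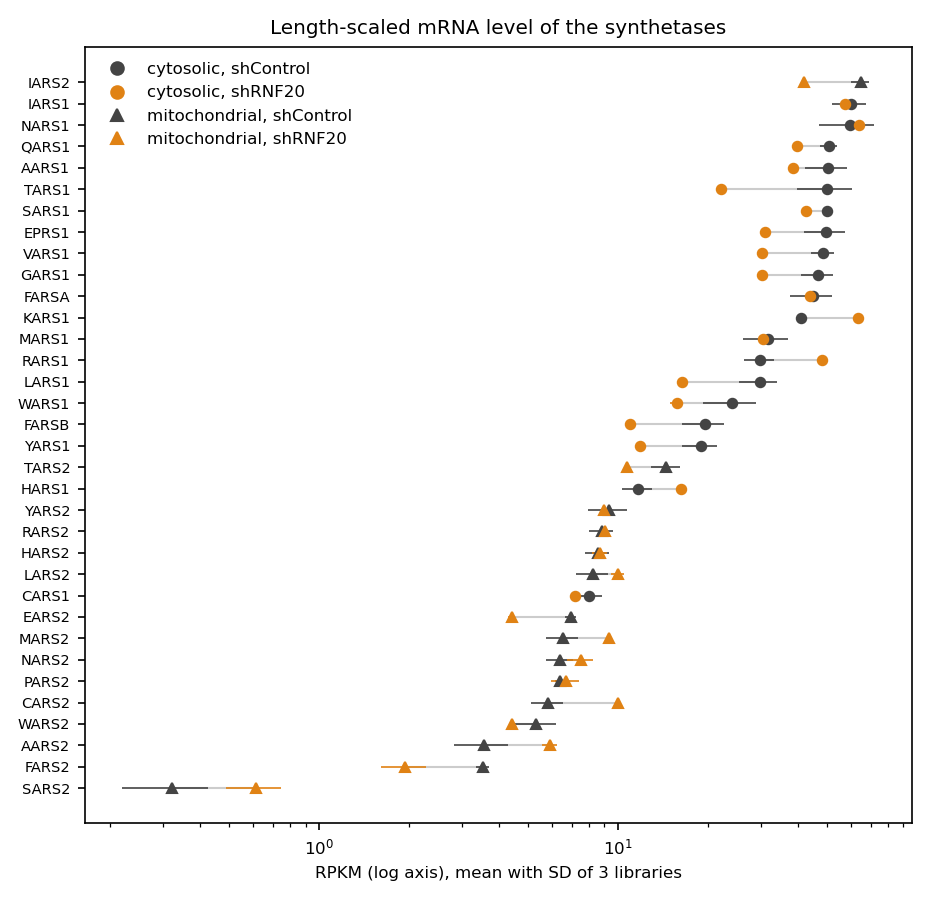
Level per exon length (x axis, RPKM on a log scale, mean with SD of 3 libraries) of each synthetase gene in shControl and shRNF20, ordered by the shControl level. VARS2, at or below 0.049 RPKM, is left out, and the cytosolic genes (circles) lie mostly to the right of the mitochondrial genes (triangles), with IARS2 at 64.8 RPKM and CARS1 at 8.01 RPKM in shControl among the exceptions.

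For the alanyl enzymes the ratio of cytosolic to mitochondrial RPKM went from 14.2 in shControl to 6.49 in shRNF20, and for the leucyl enzymes from 3.62 to 1.64. The cysteinyl ratio went from 1.38 to 0.72, but its size depends on the counting. For CARS1, reads summed over both strand columns were 1.47 times the counts used here. For CARS2 they hardly differed (2044 against 2037 in shControl replicate 1). Which cysteinyl gene had the higher level in shRNF20 therefore cannot be read from this ratio. The ratio was higher in shRNF20 for arginyl (3.39 to 5.33) and isoleucyl enzymes (0.93 to 1.37). Summed over the 19 cytosolic genes, reads came to 3679, 3457 and 4199 CPM in shControl and 3122, 3118 and 3141 CPM in shRNF20. The shRNF20 sums were all lower, at 0.828 of the shControl mean. The mitochondrial genes summed to 651, 649 and 706 CPM in shControl and 621, 610.4 and 607 CPM in shRNF20, a ratio of 0.916. That direction rested on IARS2: without it the ratio was 1.10, from 399 ± 17.6 to 438 ± 5.19 CPM (SD, n = 3 each).

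Genes that act beside the synthetases were counted in lists. Over all tested genes, 28.7% rose and 29.8% fell. Of 14 genes for cytosolic transfer RNA supply, export and proofreading, 5 rose, 4 fell and 5 did not pass, and the median log2 change was 0.03. AARSD1, an editing factor for mischarged alanine transfer RNA, rose from 0.505 to 2.88 CPM (log2 2.49, edgeR adjusted p = 0.000235), and TRNT1, which adds the CCA end to transfer RNA in both compartments, rose by 0.74 (edgeR adjusted p = 0.000333). Of 10 cytosolic elongation and termination genes, 9 were tested, of which 3 rose, 3 fell and 3 did not pass. The untested gene, EEF1G, had 0 reads in every library. EEF1D was called higher (log2 0.70), but its reads summed over both strand columns were 3.75 times the counts used here. Those unscaled sums were 11713, 8857 and 9691 in shControl and 7957, 6785 and 8390 in shRNF20. The direction of EEF1D therefore cannot be read from its call. EEF1A1, which delivers charged transfer RNA to the ribosome, had a log2 change of -0.72 (edgeR adjusted p = 6.93e-05), and the release factor gene ETF1 had a log2 change of 0.74 (edgeR adjusted p = 9.57e-05).

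Of 18 genes for mitochondrial transfer RNA maturation or aid to charging, 11 rose, 2 fell (GATB and GTPBP3) and 5 did not pass. The median log2 change was 0.43. PUS1, a pseudouridine synthase, rose by 1.06 (edgeR adjusted p = 2.63e-05), and HSD17B10, a subunit of mitochondrial RNase P, rose by 0.84 (edgeR adjusted p = 9.36e-05). Of 12 mitochondrial translation factors, 5 rose, 2 fell (MTIF3 and GFM2) and 5 missed the threshold, and the median was 0.24. MRRF, which recycles ribosomes, had a log2 change of 0.49 (edgeR adjusted p = 0.00164), and the initiation factor gene MTIF3 had a log2 change of -0.55 (edgeR adjusted p = 0.00335). All 13 mRNAs of the mitochondrial genome rose, with a median log2 change of 2.65. Leaving these and all other genes of the mitochondrial genome out of the table kept every synthetase call but that of LARS2.

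In the list of ATF4 and its targets, 29 of 30 genes were tested, of which 5 rose (17.2%), 14 fell (48.3%) and 10 did not pass. Over all tested genes the shares were 28.7% higher and 29.8% lower. The median log2 change of the list was -0.36. MTHFD2, an enzyme of mitochondrial folate metabolism, had a log2 change of -2.05 (edgeR adjusted p = 9.30e-06). SLC3A2, the heavy chain of amino acid transporters, moved the other way, with a log2 change of 1.26 (edgeR adjusted p = 2.43e-05). ATF4 itself went from 208 to 132 CPM (-0.66, edgeR adjusted p = 0.000187), a gene named after its values were seen. Of 14 tested genes for eIF2 kinases and amino acid sensors, 3 rose (21.4%), 5 fell (35.7%) and 6 did not pass. The heme-regulated kinase gene EIF2AK1 had a log2 change of -0.87 (edgeR adjusted p = 7.02e-05), and the GCN2 gene EIF2AK4 had a log2 change of -0.66 (edgeR adjusted p = 8.66e-05). WARS1 is also known as a target of interferon gamma. Of 11 tested genes of that response, 4 rose (36.4%), 6 fell (54.5%) and 1 did not pass. GBP2 had a log2 change of -1.63 (edgeR adjusted p = 2.81e-05) and the transcription factor gene IRF1 a log2 change of 1.04 (edgeR adjusted p = 0.000143).

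**Figure D5:**
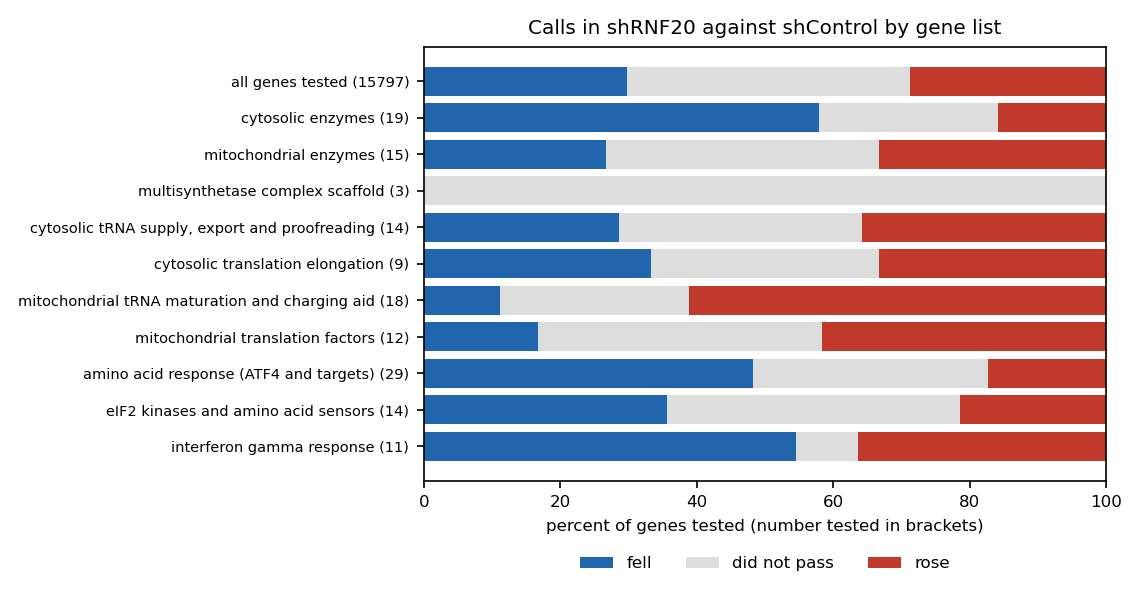
Percent of tested genes (x axis) that fell (blue), did not pass (grey) or rose (red) in shRNF20 against shControl, for all genes, the synthetase groups and the related lists, with the number tested in brackets. The blue share is 57.9% for the cytosolic enzymes against 29.8% for all genes. The red share is 61.1% for mitochondrial transfer RNA maturation and charging aid against 28.7% for all genes.

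Replicates differed in spread between groups. The median SD of log2-CPM over the synthetase genes was 0.18 in shControl and 0.035 in shRNF20, against 0.21 and 0.086 over all genes. Calls held in each of the 17 alternatives for FARSB, KARS1, LARS1, RARS1, TARS1 and VARS1 among cytosolic genes and for CARS2, FARS2 and IARS2 among mitochondrial genes.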

How the data were processed

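The authors deposited raw read counts per gene for 6 libraries of total RNA. Per the submitters' processing notes, reads were checked with FastQC 0.12.1 and aligned to hg38 with STAR 2.7.11a. Trimming, mRNA enrichment and annotation release were not stated there. The strand columns were nearly equal (50.1% to 50.2% in 1 of them), so counts without strand were used. Reads over several genes are recorded as ambiguous (10.7% to 11.2%), which lowers counts of overlapping genes, and lines that name no gene (20.9% to 24.1%) were left out.

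Counts were fitted over all genes with R 4.3.3 and edgeR 4.0.16 (filterByExpr with minimum count 10, TMM scaling, robust quasi-likelihood F-test, Benjamini-Hochberg adjustment). SE is the log2 fold change over the root of F. RPKM used exon lengths from GENCODE 29, which also gave gene positions on GRCh38.

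Members and lists were chosen with earlier results of these data known. By rule, library values are given for the 6 genes of each compartment with the smallest p and those with the largest p or highest level, and the 2 smallest p of each list are named. SARS2, LARS2, VARS2, HARS1, EEF1D, EEF1G and genes named because few of a list moved were added after their values were seen. Alternatives included other scalings and filters, DESeq2 1.42.0, limma-voom (limma 3.58.1), a replicate block and each library left out.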

Additional observations from a re-analysis of the deposited data

How the results depend on the processing

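The counts of synthetase genes called were recomputed under 17 alternatives. With the 3 shRNF20 libraries summed to 1 sample, which leaves fewer samples and assumes that the lone sample varies like the shControl libraries, 3372 genes were called in all against 9232, with 4 cytosolic genes lower, and 1 mitochondrial gene higher and 2 lower. With each library left out in turn, 7523 to 9777 genes were called, with 3 to 4 cytosolic genes higher and 9 to 12 lower, and 3 to 5 mitochondrial genes higher and 4 to 5 lower. The lowest mitochondrial count of 3 higher came without shRNF20 replicate 1 or 2. Replicate numbers did not pair the samples: deviations of same-numbered libraries correlated at -0.016, 0.035 and 0.028. With a replicate block 8936 genes were called, and the counts of synthetase genes did not move. Every change of sign was in a gene that had not passed, and the cause was not tested. With upper quartile scaling FARSA was at 0.0030, and with no filter on low counts HARS2 was at -0.015 and RARS2 at -0.0022 (log2). With each library left out in turn, the log2 change spanned -0.17 to 0.059 for FARSA, -0.18 to 0.027 for IARS1, -0.19 to 0.070 for MARS1, -0.0037 to 0.29 for NARS1, -0.056 to 0.088 for HARS2, -0.039 to 0.11 for PARS2, -0.040 to 0.089 for RARS2 and -0.16 to 0.068 for YARS2. Leaving out GARS1 and KARS1 took the ratio of summed cytosolic to mitochondrial CPM from 5.64 to 5.10 in shControl and from 5.11 to 4.48 in shRNF20. The sum without IARS2 was chosen after seeing the data. Low counts limit SARS2 and VARS2.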
